A study of Mus musculus with 2 samples.

Results

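Interferon-induced genes, the receptor chains that pass on the interferon signal and the interferon regulatory factors (IRFs) were followed from brown preadipocytes (D0) to brown adipocytes (D7). The members were the genes whose symbol matched a fixed pattern of interferon gene families (Ifnar, Ifngr, Stat2, Irf, Ddx58, Ifih1, Isg15, Usp18, Ifit, Ifitm, Oas, Oasl, Mx, Gbp, Irgm, Iigp1 and Ifi genes and a few others). This rule used names and no measured value, and it gave 72 of the 23361 genes with a value in the deposited table. RNA-Seq was carried out on 1 library at D0 and 1 library at D7, so no test across replicates was possible and no p-value is given. The cells came from the interscapular brown fat of newborn C57BL/6 mice and carried no labelled genetic change. Per the labels they were primary cultures grown in 20% serum, plated 4 days before induction in medium with 10% serum, insulin (0.1 μM) and T3 (1 nM). From day 0 they received indomethacin at 0.125 mM, dexamethasone at 2 μg/ml and IBMX at 0.5 mM for 2 days, and then the medium without these inducers until D7. The methods of the study describe immortalization with a large T retrovirus and other doses of insulin and dexamethasone, and do not state whether the sequenced cells were the immortalized ones or whether cells of several pups were pooled.

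Interferons are secreted antiviral signals. Type I interferons bind the receptor made of Ifnar1 and Ifnar2 and lead to a complex that holds Stat2 and Irf9 and binds the interferon-stimulated response element (ISRE), whereas interferon gamma binds Ifngr1 and Ifngr2 and acts through the gamma-activated site. Many targets are also expressed at a basal level in cells that were given no interferon, and fibroblasts and preadipocytes are among such cells. In brown fat, Irf4 is known as a partner of Ppargc1a in the control of thermogenic genes.

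Promoters are shown for the members at both ends of the D7 to D0 ratio, since they let the ISRE core be seen in genes with the most extreme ratios. They are the members with the 3 lowest and the 3 highest ratios among those with a level of at least 1 FPKM (fragments per kb of transcript and 1000000 reads) in a library and a promoter window in the RefSeq table. Each run holds the 250 bases before the transcription start, 5′ to 3′ on the strand of the gene, in build GRCm38.p6 from RefSeq, and capitals mark the letters GAAA, any 2 bases, GAAA (the ISRE core, searched on both strands).
Isg15: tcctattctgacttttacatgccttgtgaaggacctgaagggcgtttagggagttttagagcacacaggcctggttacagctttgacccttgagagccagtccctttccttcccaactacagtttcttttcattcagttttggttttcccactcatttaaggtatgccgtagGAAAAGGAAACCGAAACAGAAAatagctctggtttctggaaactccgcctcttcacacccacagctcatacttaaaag
Irgm1: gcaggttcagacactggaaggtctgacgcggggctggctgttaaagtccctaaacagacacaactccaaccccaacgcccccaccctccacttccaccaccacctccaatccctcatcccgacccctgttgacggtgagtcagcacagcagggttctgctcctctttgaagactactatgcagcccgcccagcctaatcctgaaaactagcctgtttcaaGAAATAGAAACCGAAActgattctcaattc
Oasl1: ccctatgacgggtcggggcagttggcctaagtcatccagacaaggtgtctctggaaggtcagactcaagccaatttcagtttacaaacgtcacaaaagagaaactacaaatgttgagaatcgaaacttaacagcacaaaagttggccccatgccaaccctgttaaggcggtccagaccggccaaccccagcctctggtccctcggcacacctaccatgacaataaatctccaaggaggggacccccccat
Ifi205: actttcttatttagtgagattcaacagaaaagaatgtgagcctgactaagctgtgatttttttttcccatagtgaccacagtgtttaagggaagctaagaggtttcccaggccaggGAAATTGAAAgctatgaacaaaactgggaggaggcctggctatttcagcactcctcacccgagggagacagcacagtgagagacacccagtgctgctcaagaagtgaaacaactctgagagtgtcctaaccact
Ifngr1: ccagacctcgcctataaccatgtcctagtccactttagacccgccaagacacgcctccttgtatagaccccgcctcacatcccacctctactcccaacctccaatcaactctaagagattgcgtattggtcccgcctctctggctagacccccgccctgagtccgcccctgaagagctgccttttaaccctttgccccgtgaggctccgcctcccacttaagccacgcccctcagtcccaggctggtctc
Ifi203: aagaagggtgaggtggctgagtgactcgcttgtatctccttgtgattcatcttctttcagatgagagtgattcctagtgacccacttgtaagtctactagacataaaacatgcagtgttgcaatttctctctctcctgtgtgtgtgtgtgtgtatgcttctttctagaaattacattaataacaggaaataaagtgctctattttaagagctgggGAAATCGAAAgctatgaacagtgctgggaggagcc
The windows lie at chr4:156200819-156201068 (minus strand) for Isg15, chr11:48871421-48871670 (minus) for Irgm1, chr5:114922990-114923239 (plus) for Oasl1, chr1:174031756-174032005 (minus) for Ifi205, chr10:19591699-19591948 (plus) for Ifngr1 and chr1:173942493-173942742 (minus) for Ifi203. Of the members with the lowest ratios, Isg15 held 3 overlapping ISRE cores and Irgm1 held 2, and Oasl1 held 0. Of those with the highest, Ifi205 and Ifi203 each held 1 core and Ifngr1 held 0, and Ifi205 had 1 more match past the start. Usp18, Ifi27l2a and Ifi27l2b had more extreme ratios than some of these, and no window was used for them. Irf4, listed at 0 at D0, has no ratio and was not ranked here.

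Over all genes in the RefSeq windows from 250 bases before to 50 bases after the start, 3.99% of 27025 genes held an ISRE core and 9.55% held a gamma-activated site (TTC, any 3 bases, GAA, on both strands). Of the 51 members with a window, 23 held an ISRE core (45.1%) and 16 held a gamma-activated site (31.4%). Some members of these families share sequence, such as Oas1a and Oas1g, so their promoters cannot be taken as independent of each other. The ISRE core stood in genes that were higher at D7 (5 members, such as Ifi205, Gbp3 and Oas3), lower at D7 (5 members: Isg15, Irgm1, Ifit1, Ddx58 and Stat2) and in between (13 members, such as Gbp2 and Bst2), where higher means a ratio of 2.0 or more and lower means 0.5 or less. The gamma-activated site stood in 3 higher members (Gbp5, Irf8 and Ifitm6, of which Gbp5 and Ifitm6 had at most 7 fragments in a library), in 0 lower members and in 12 in between. Without an ISRE core, 3 of 22 members with a window and above 0 in both libraries were higher and 5 were lower. Without a gamma-activated site, 5 of 30 such members were higher and 10 were lower. The shares of all genes above 0 in both libraries were 18.5% higher and 13.2% lower. The lower members Usp18, Ifi27l2b, Mx2, Gbp4 and Gbp9 had no window and are outside these counts. In Bst2 and Ifitm3 a match of 1 motif overlapped a match of the other. A match says only that these letters occur in the window.

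**Figure D1:**
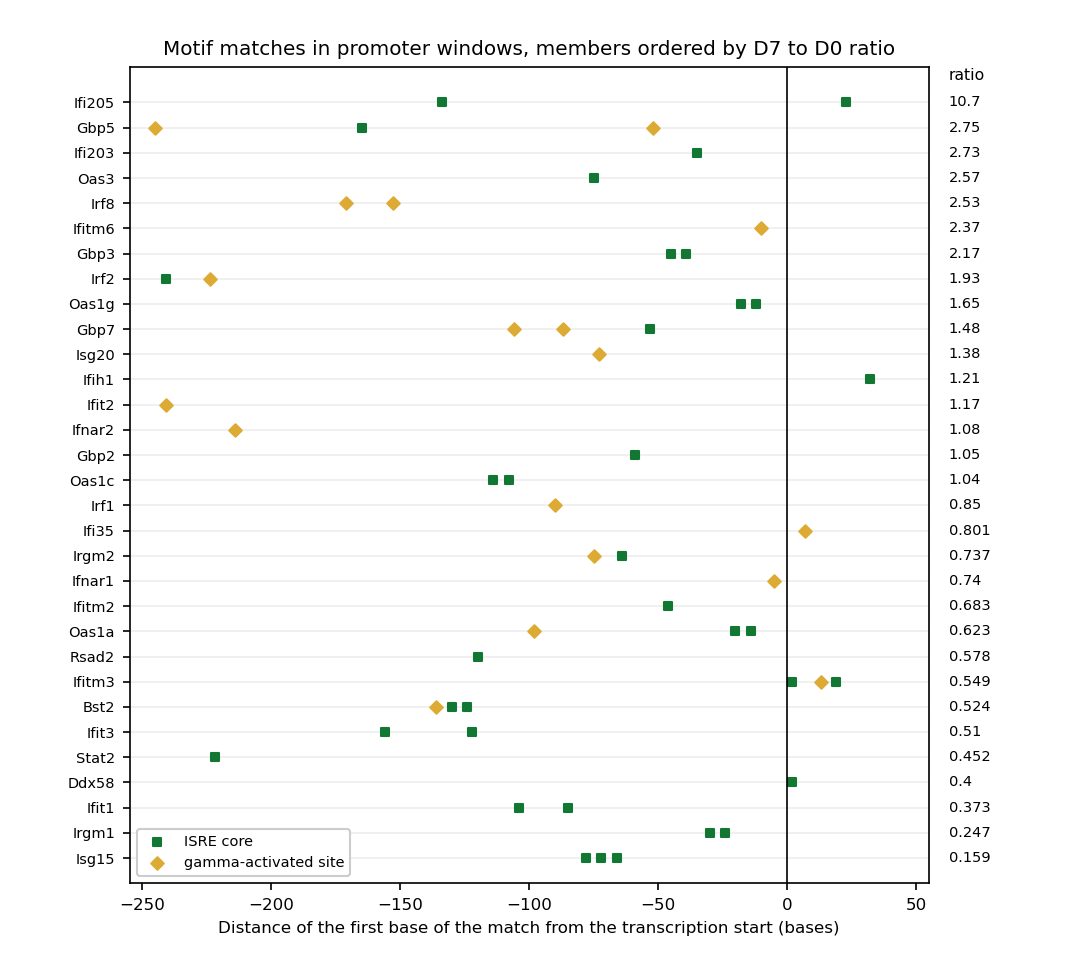
Position of each ISRE core (squares) and gamma-activated site (diamonds) against the transcription start at 0, in bases, for the members with a match and a ratio, ordered from the lowest ratio (Isg15, 0.159) at the bottom to the highest (Ifi205, 10.7) at the top. ISRE cores occur along the whole order of ratios, and no gamma-activated site occurs in the 5 rows at the bottom.

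Of the 72 members, 63 were above 0 in both libraries and 50 had at least 1 FPKM in a library. The D7 to D0 ratio was at least 2.0 in 14 of the 63 members (22.2%) and at most 0.5 in 15 (23.8%), beside 18.5% and 13.2% of all 14986 genes above 0 in both libraries. With the filter of at least 1 FPKM in a library, 8 of 49 members were higher (16.3%) and 14 were lower (28.6%), beside 15.6% and 11.9% of 11967 genes. The share of lower members was thus above the background on both scales, while the share of higher members was near the background once the weakly expressed genes were left out. The median log2 ratio was -0.23 over the 63 members (0.02 over all genes, and 0.00 over all 72 members with a pseudocount of 0.1 or 1) and -0.32 over the 49 (-0.03 over all genes at that level). Of the 5 scalings tried, 4 moved the ratios by at most 0.05 on the log2 scale, whereas setting values under 0.01 to 0.01 and dividing each library by its median shifts all ratios down by 0.35 on the log2 scale (a factor of 1.28) and turns the split of 14 higher and 15 lower members into 8 and 26.

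Fragment numbers behind the FPKM values were recovered from genes with 1 exon, which gave 21469676 fragments at D0 and 18266967 at D7 as the denominators. Each ratio is given with its exact Clopper-Pearson 95% interval, which covers counting error only and compares the 2 libraries, not the stages. Of the 14 higher members, Gbp8 rests on 1 and 2 fragments, which is at or under the 3-fragment limit in both libraries. The interval left out 1 for 10 of the 14 higher members and for 15 of the 15 lower members. The 12 brown adipocyte markers rose in sum from 43.3 to 16550 FPKM, of which Fabp4 alone made up 14391 FPKM at D7. Of them 8 were higher, and Ucp1 (4.57 FPKM at D7), Cidea and Elovl3 were listed at 0 at D0 only. Prdm16 was within 2.0-fold (0.835 and 1.02 FPKM, ratio 1.22, interval 0.965 to 1.53). Of 8 preadipocyte and fibroblast markers 3 were lower (Col1a1, Pdgfrb and Thy1) and 3 were within 2.0-fold. Dlk1 (3.57 and 38.5 FPKM) and Cd34 (1.85 and 15.4 FPKM) were higher. Of 14 macrophage markers 13 were at least 2.0-fold higher at D7, their sum went from 156 to 587 FPKM, single markers reached from 0.0110 to 111 FPKM at D0 and up to 286 FPKM at D7, and Cd14 had a ratio of 1.06. Macrophages express many of the members, and the part of these cells in the results below was not tested. In such bulk libraries fewer cells of a type and less RNA per cell cannot be told apart. Of 10 T, NK and B lymphocyte markers 8 were listed at 0 in both libraries, as were 2 of 6 dendritic cell markers (Flt3 and Siglech). The other 4 dendritic cell markers were above 0 in both libraries and within 2.0-fold. Of them Zbtb46 had the highest level, with 1.38 and 1.99 FPKM (ratio 1.45). The 6 endothelial markers summed to 1.62 and 2.69 FPKM. Of the neutrophil and mast cell markers S100a8 had 0.219 and 5.47 FPKM, Cpa3, Csf3r and Kit were listed at 0 at D0 only and had at most 0.258 FPKM at D7, and Mcpt4 and S100a9 were listed at 0 in both. Their part in the results was not tested either.

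**Figure D2:**
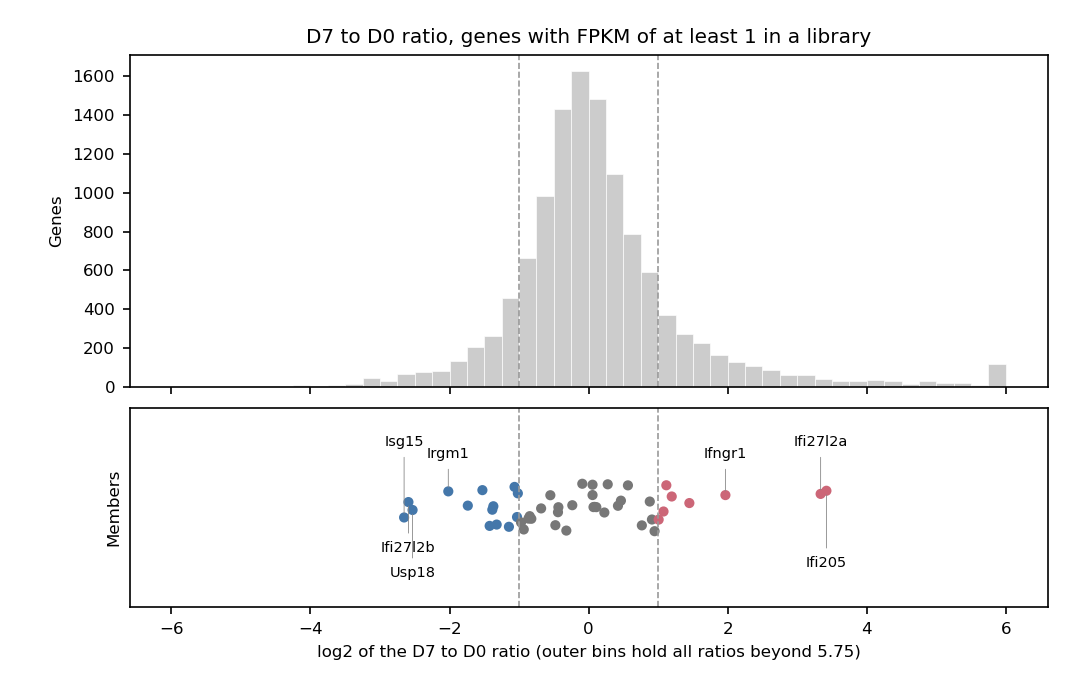
Upper panel, number of genes by log2 of the D7 to D0 ratio for the 11967 genes with at least 1 FPKM in a library, and lower panel, the 49 members of that level as points (height is scatter only), with dashed lines at ratios of 0.5 and 2.0. There are 14 points at or left of the lower line and 8 at or right of the upper line.

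Among the receptor chains, Ifngr1, the ligand-binding chain for interferon gamma, was higher at D7, whereas its partner Ifngr2 and both chains of the type I receptor stayed within 2.0-fold. Ifngr1 had 18.2 FPKM at D0 and 71.3 FPKM at D7, a ratio of 3.91 (interval 3.61 to 4.25). Ifngr2, the signalling chain, had 39.7 and 28.5 FPKM (ratio 0.718, interval 0.677 to 0.761). The FPKM of Ifngr1 relative to Ifngr2 thus went from 0.459 to 2.50, so that the order of the chains by level was turned. Ifnar1 had 12.7 and 9.41 FPKM (ratio 0.740, interval 0.669 to 0.818). Ifnar2 had 34.9 and 37.6 FPKM (ratio 1.08, interval 1.01 to 1.15), and its ratio was 0.845 with the floor and library median. The same-strand transcript Gm21970 overlaps Ifnar2. Ifnar2, Ifnar1 and Ifngr2 lie together at chr16:91372783-91565623 (mm10), and Ifngr1 lies apart at chr10:19591949-19610229.

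Both components of the type I complex described here were lower at D7. Stat2, the subunit with the main activation domain, had 41.1 FPKM at D0 and 18.6 FPKM at D7 (ratio 0.452, interval 0.425 to 0.481), and stayed below 0.5 under every scaling and pseudocount tried. Irf9, the subunit that reads the DNA element, had 33.1 and 16.3 FPKM (ratio 0.494, interval 0.455 to 0.536), which is just inside the threshold and came to 0.509 with a pseudocount of 1.

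Of the 9 IRF factors, 7 had at least 1 FPKM in a library, and besides Irf9 and Irf4 they stayed within 2.0-fold. Irf4 was listed at 0 at D0 and had 1.98 FPKM at D7 (166 fragments). Its D7 level was 65.1 times the limit that 3 fragments set at D0 (0.0305 FPKM), and the lower end of its counting interval was 52.3-fold. It is the only member listed at 0 in 1 library with over 3 fragments in the other. Irf7, the amplifier of type I interferon production, had 21.2 and 11.8 FPKM (ratio 0.556, interval 0.491 to 0.630). Irf1, an activator induced by interferon gamma, had 11.4 and 9.73 FPKM (ratio 0.850, interval 0.740 to 0.980). Irf2, its antagonist at many promoters, had 8.32 and 16.0 FPKM (ratio 1.93, interval 1.70 to 2.18), just outside the threshold. The level of Irf2 relative to Irf1 accordingly went from 0.727 to 1.65. Irf3, the constitutive factor that starts interferon production, had 15.8 and 16.4 FPKM (ratio 1.04, interval 0.926 to 1.17, and 0.815 with the floor and library median). Irf5, a factor of myeloid inflammatory responses, had 2.36 and 3.16 FPKM (ratio 1.34, interval 1.02 to 1.76). Irf8, a factor that macrophages and dendritic cells need, remained under 1 FPKM with 0.352 and 0.890 FPKM (ratio 2.53, interval 1.46 to 4.54, and 1.40 with a pseudocount of 1) and its locus is overlapped on the same strand by Gm20388.

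The cytoplasmic RNA sensors parted. Ddx58, which encodes RIG-I, had 27.4 FPKM at D0 and 11.0 FPKM at D7 (ratio 0.400, interval 0.368 to 0.435). Ifih1, which encodes the sensor of long double-stranded RNA, had 4.12 and 4.96 FPKM (ratio 1.21, interval 1.06 to 1.37, and 0.945 with the floor and library median). Ddx58 stood 6.66 times above Ifih1 in FPKM at D0 and 2.21 times at D7. Ddx58 was called lower under all the scalings and pseudocounts tried, from 0.313 with the floor and library median to 0.421 with a pseudocount of 1.

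**Figure D3:**
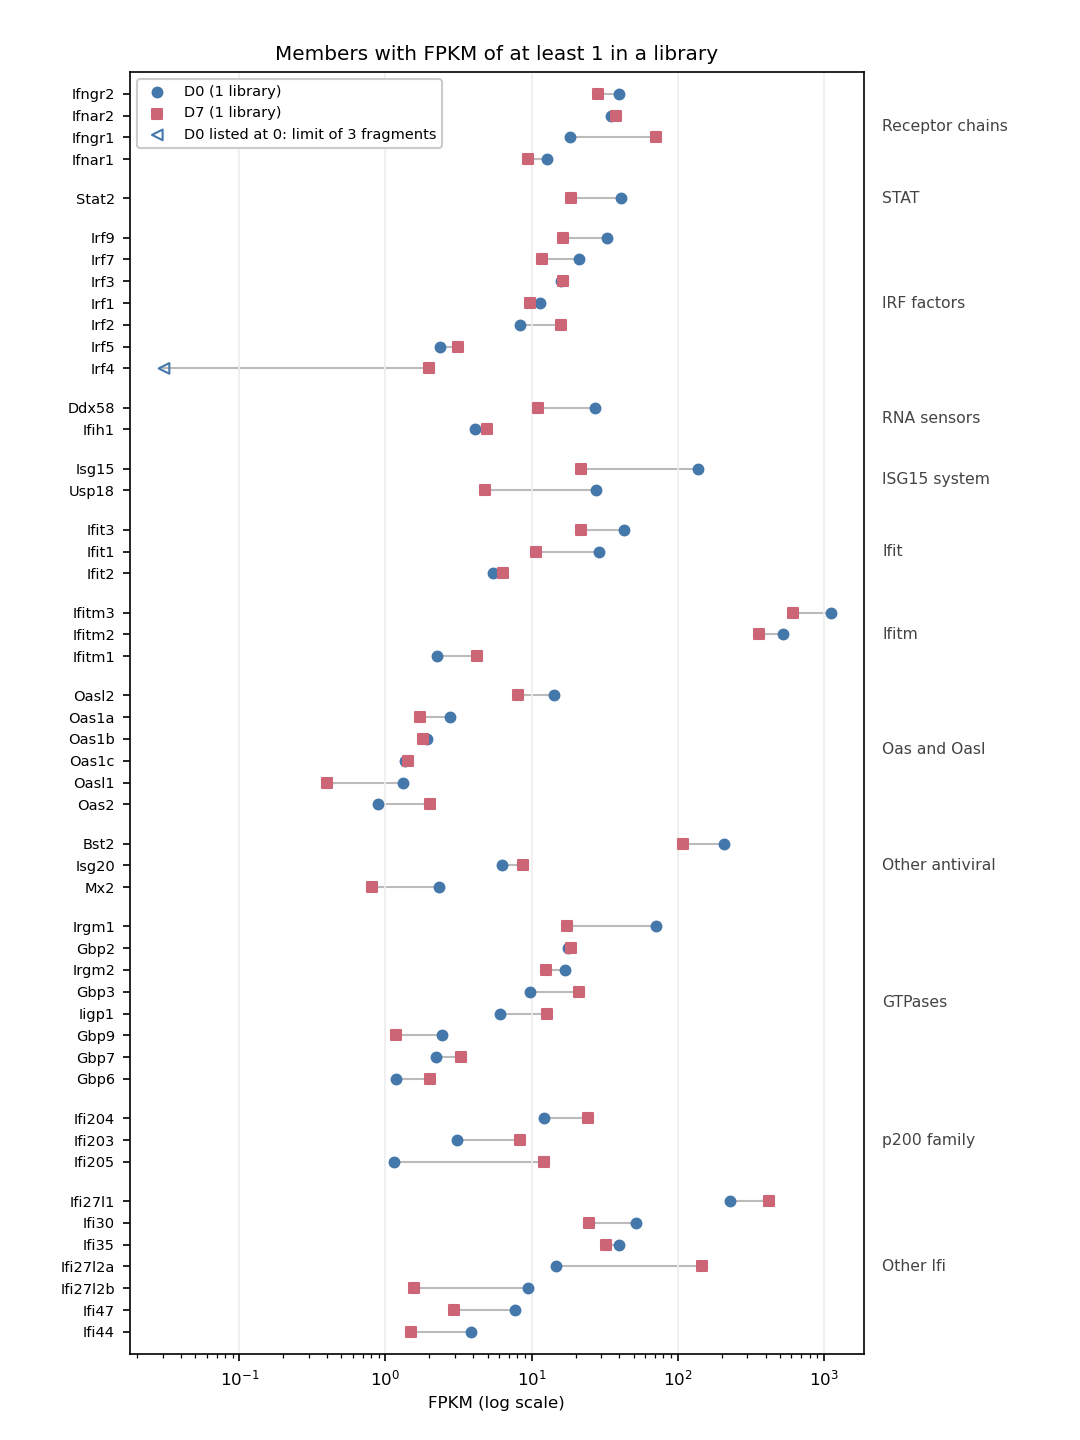
FPKM on a log scale at D0 (circles) and D7 (squares), 1 library each, for 49 of the 50 members with at least 1 FPKM in a library, grouped by role and ordered by the D0 level within a role. The open triangle is the 3-fragment limit of Irf4 at D0 (0.0305 FPKM), and the widest gaps are those of Irf4, Ifi205, Ifi27l2a, Isg15, Ifi27l2b and Usp18.

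The ISG15 system had the lowest median ratio of any role (0.166). Isg15 encodes a ubiquitin-like protein that is attached to other proteins after interferon, and it had 138 FPKM at D0 and 21.8 FPKM at D7 (ratio 0.159, interval 0.138 to 0.182). Usp18, the protease that removes Isg15 and also blocks the type I receptor, had 27.7 and 4.79 FPKM (ratio 0.173, interval 0.144 to 0.207). The level of Isg15 relative to Usp18 was 4.98 at D0 and 4.56 at D7, so both transcripts kept nearly the same proportion. Among the 11967 genes with at least 1 FPKM in a library, 1.40% had a ratio below that of Isg15 and 1.70% below that of Usp18. The promoter of Isg15, shown above, is the printed window with the most ISRE cores.

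In the Ifit family, whose products bind foreign RNA, Ifit1 was lower at D7 and its neighbours were not called. Ifit1 had 28.8 and 10.7 FPKM (ratio 0.373, interval 0.337 to 0.414). Ifit3 had 43.0 and 21.9 FPKM (ratio 0.510, interval 0.464 to 0.561), just outside the threshold. It shares 51.2% of its 50-base stretches with other genes, the most with Ifit3b. Ifit2 had 5.48 and 6.39 FPKM (ratio 1.17, interval 1.02 to 1.34, and 0.913 with the floor and library median). All lie within chr19:34550694-34650009 (mm10).

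The Ifitm genes encode small membrane proteins that hinder virus entry, and Ifitm3 and Ifitm2 had the highest levels of all members at D0. Ifitm3 had 1115 FPKM at D0 and 612 FPKM at D7 (ratio 0.549, interval 0.532 to 0.567) and ranked first among the members in both libraries. Ifitm2 had 529 and 361 FPKM (ratio 0.683, interval 0.654 to 0.714). It shares 48.5% of its 50-base stretches with other genes, the most with the overlapping transcript Gm45717. Together, Ifitm2 and Ifitm3 made up 56.1% of the summed FPKM of all members at D0 and 43.5% at D7. That sum went from 2932 to 2237 FPKM (ratio 0.763). Ifitm1 had far lower levels of 2.25 and 4.24 FPKM (ratio 1.88, interval 1.20 to 2.97). Ifitm6 (3 and 5 fragments) and Ifitm10 (10 and 5 fragments) had intervals that held 1, Ifitm5 was at or under the limit in both libraries, and Ifitm7 was listed at 0 in both.

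The Oas and Oasl genes encode sensors of double-stranded RNA, and the mouse Oasl proteins include regulators of Irf7 translation. Their members moved both ways. Oasl1, the regulator of Irf7, had 1.32 and 0.395 FPKM (ratio 0.300, interval 0.154 to 0.546, 55 and 14 fragments), and its ratio came to 0.602 with a pseudocount of 1. Oasl2 had 14.2 and 8.04 FPKM (ratio 0.565, interval 0.502 to 0.634) and was the most abundant of the group in both libraries. Oas2 had 0.885 and 2.02 FPKM (ratio 2.29, interval 1.70 to 3.09). Oas3 had 0.113 and 0.290 FPKM (ratio 2.57, interval 1.21 to 5.80) on only 11 and 24 fragments. These adjacent genes were higher at D7, although with a pseudocount of 1 their ratios came to 1.60 and 1.16. Oas1a had 2.78 and 1.73 FPKM (ratio 0.623, interval 0.440 to 0.875). It shares 57.6% of its 50-base stretches with other genes, the most with Oas1g. Oas1b had 1.94 and 1.82 FPKM (ratio 0.939, interval 0.646 to 1.36). Oas1c had 1.37 and 1.43 FPKM (ratio 1.04, interval 0.713 to 1.53, and 0.818 with the floor and library median). The intervals of Oas1b, Oas1c and Oas1g held 1. Of the remaining Oas1 copies, Oas1d, Oas1f and Oas1h were listed at 0 in both libraries and Oas1e was at or under the limit. The 10 Oas genes lie in 1 block at chr5:120730333-120921652 (mm10).

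Among the other antiviral effectors, Mx2, a dynamin-like GTPase, was lower at D7, with 2.33 and 0.807 FPKM (ratio 0.347, interval 0.228 to 0.515, and 0.543 with a pseudocount of 1). Its neighbour Mx1 had under 1 FPKM and 9 and 6 fragments. Bst2, which tethers budding virus to the cell surface, had 207 and 108 FPKM (ratio 0.524, interval 0.489 to 0.561), just outside the threshold, and ranked 4 among the members at D0 and 5 at D7. Isg20, an exonuclease, had 6.29 and 8.69 FPKM (ratio 1.38, interval 1.08 to 1.77). Rsad2, which encodes viperin, was under 1 FPKM in both libraries, with 55 and 27 fragments.

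The GTPases of the guanylate-binding (Gbp) and immunity-related (Irg) families, which act on the membranes around intracellular pathogens, were split, with Irgm1 far lower and Gbp3 and Iigp1 higher. Irgm1 is a regulator of the other Irg GTPases and had 71.4 FPKM at D0 and 17.6 FPKM at D7 (ratio 0.247, interval 0.226 to 0.268). Its relative Irgm2 had 16.9 and 12.5 FPKM (ratio 0.737, interval 0.671 to 0.808), and the level of Irgm1 relative to Irgm2 went from 4.22 to 1.41. Iigp1, an effector GTPase, had 6.06 and 12.8 FPKM (ratio 2.11, interval 1.86 to 2.39). Gbp3 had 9.79 and 21.2 FPKM (ratio 2.17, interval 1.95 to 2.42), while Gbp2 had 17.8 and 18.6 FPKM (ratio 1.05, interval 0.951 to 1.15, and 0.820 with the floor and library median). With that scaling the ratios of Gbp3 and Iigp1 were 1.70 and 1.65, below the threshold.

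The Gbp genes of the cluster at chr5:105014150-105346472 (mm10) had lower levels. Gbp6 had 1.18 and 2.01 FPKM (ratio 1.70, interval 1.21 to 2.38). It shares 90.2% of its 50-base stretches with other genes, the most with Gm43302. Gbp9 had 2.43 and 1.19 FPKM (ratio 0.490, interval 0.378 to 0.627, and 0.639 with a pseudocount of 1) and overlaps Gbp8. Gbp4 had 17 fragments at D0 and 2 at D7 (0.184 and 0.0255 FPKM, ratio 0.138, interval 0.0155 to 0.583), and its ratio came to 0.441 with a pseudocount of 0.1 and 0.866 with 1. Gbp8 and Gbp10 were at or under the limit in both libraries. In the cluster at chr3:142493978-142638008, Gbp7 had 2.22 and 3.27 FPKM (ratio 1.48, interval 1.25 to 1.74), and Gbp1 was listed at 0 in both libraries. Gbp11 (2 and 6 fragments) and Gbp5 (3 and 7 fragments) had ratios above 2.0 with intervals that held 1.

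**Figure D4:**
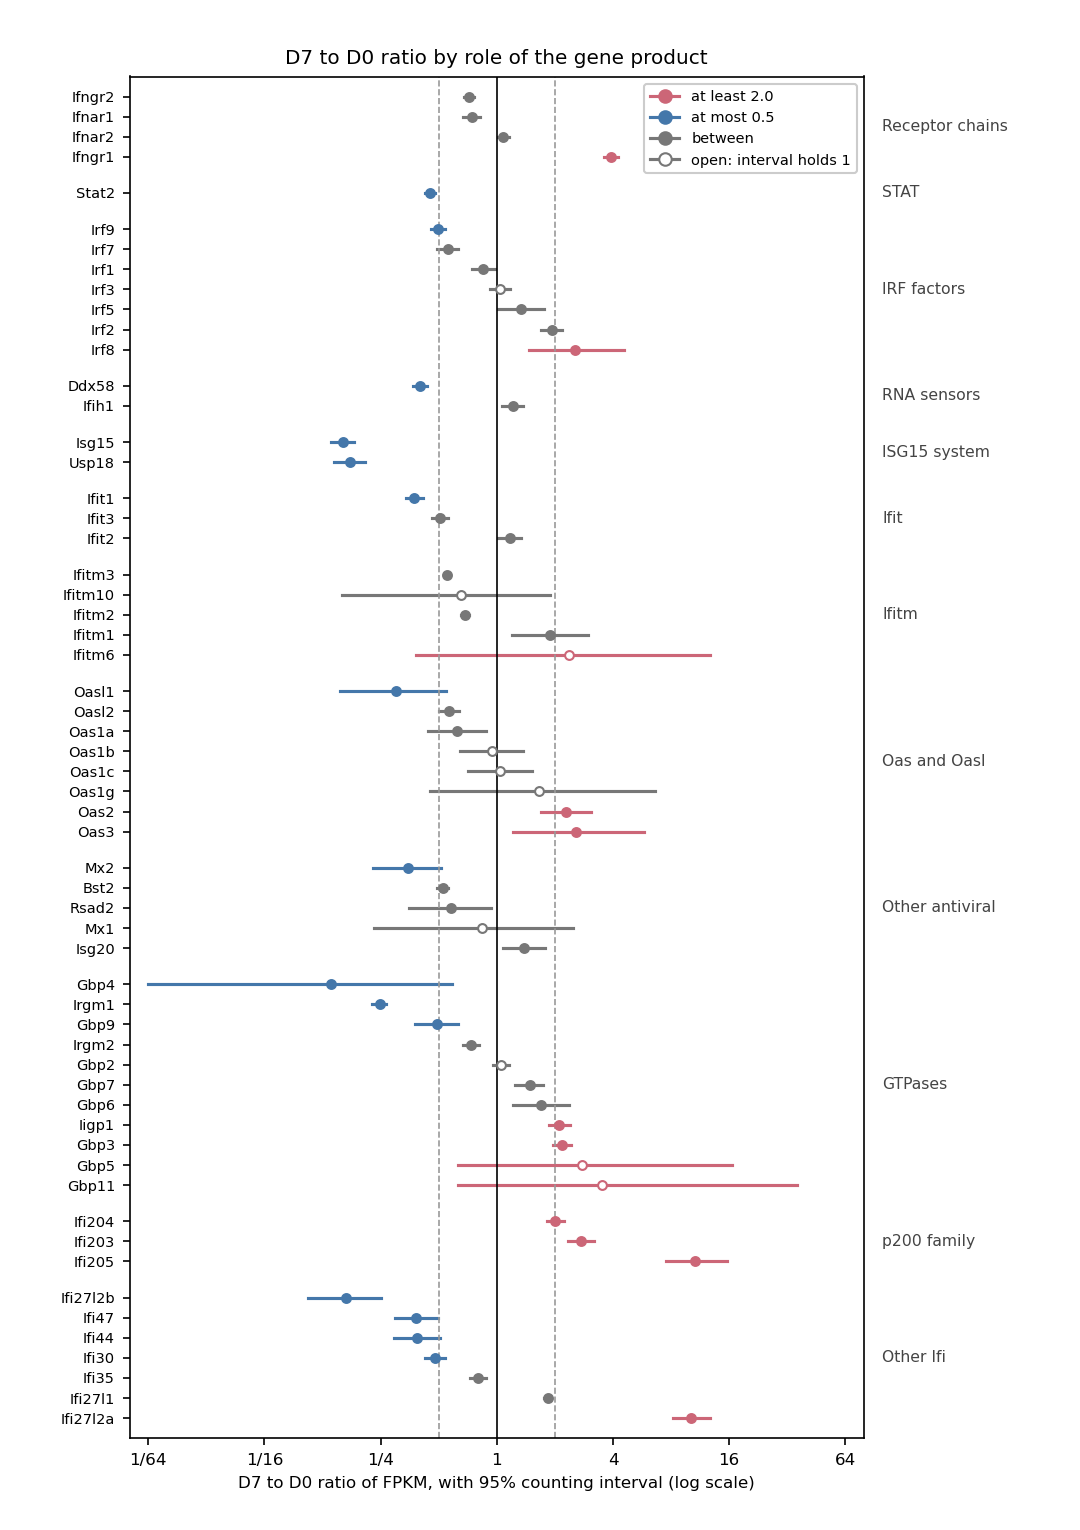
D7 to D0 ratio of FPKM on a log scale with its 95% counting interval for the members above 0 in both libraries and over 3 fragments in at least 1 of them, except 1 that is not shown, grouped by role, with dashed lines at 0.5 and 2.0. Filled points have an interval that leaves out 1, and the p200 family lies wholly to the right whereas the ISG15 system lies wholly to the left.

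The p200 family of DNA-binding proteins, several of which sense or bind DNA in macrophages, was the role in which all 3 members above 0 were higher at D7. Ifi205 had 1.14 FPKM at D0 and 12.1 FPKM at D7 (ratio 10.7, interval 7.51 to 15.6), the highest ratio of the members above 0 in both libraries. Ifi203 had 3.08 and 8.39 FPKM (ratio 2.73, interval 2.34 to 3.19). Ifi204 had 12.1 and 24.4 FPKM (ratio 2.01, interval 1.81 to 2.24), which is just inside the threshold and came to 1.58 with the floor and library median. Ifi202b was listed at 0 in both libraries. The summed FPKM of the family went from 16.3 to 44.9 (ratio 2.75). Ifi205 shares 49.6% and Ifi204 30.2% of their 50-base stretches with other genes, in each case the most with Ifi211. Mndal overlaps Ifi203 on the same strand, so the reads of these 3 genes can be split. The family lies at chr1:173747293-174031810 (mm10). While 13 of 14 macrophage markers were also higher at D7, the part of macrophages in the values of this family was not tested.

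The other Ifi genes held a pair of neighbours that moved in opposite directions. Ifi27l2a, which encodes a small hydrophobic protein of internal membranes, had 14.6 FPKM at D0 and 148 FPKM at D7 (ratio 10.1, interval 8.14 to 12.8). Ifi27l2b, whose gene lies 7217 bases away on the same strand of chromosome 12, had 9.43 and 1.56 FPKM (ratio 0.166, interval 0.105 to 0.251). The level of Ifi27l2a relative to Ifi27l2b went from 1.55 to 94.8. Ifi27l1, the third gene of the block, had 229 and 421 FPKM (ratio 1.84, interval 1.76 to 1.91) and was the second most abundant member at D7. Under every scaling and pseudocount tried Ifi27l2a remained above 2.0 and Ifi27l2b remained below 0.5. Under 10% of the 50-base stretches of these 3 genes are shared with other genes.

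Of the remaining Ifi genes, Ifi30, Ifi44 and Ifi47 were lower and Ifi35 was within 2.0-fold. Ifi30, a lysosomal thiol reductase of antigen processing, had 52.0 and 24.8 FPKM (ratio 0.478, interval 0.422 to 0.541). Ifi44 had 3.84 and 1.49 FPKM (ratio 0.387, interval 0.293 to 0.505, and 0.514 with a pseudocount of 1), and its neighbour Ifi44l was at or under the limit in both libraries. Ifi47, an immunity-related GTPase, had 7.73 and 2.96 FPKM (ratio 0.383, interval 0.296 to 0.496), and its locus is overlapped by Olfr56 on the same strand and by Tgtp2 on the other. Ifi35, which forms a complex with Nmi, had 40.0 and 32.1 FPKM (ratio 0.801, interval 0.726 to 0.883).

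Genes in 1 neighbourhood did not share a direction in every case. Irgm1 and Ifi47, at chr11:48861968-49096974, were both lower, and the p200 genes above 0 were all higher, whereas the Ifi27l block held 1 higher and 1 lower member. Of the 27 named members within 2.0-fold, the counting interval lay below 1 for 12, above 1 for 11 and held 1 for 4 (Gbp2, Irf3, Oas1b and Oas1c). Of the 22 members under 1 FPKM in both libraries, 6 were listed at 0 in both, 6 more were at or under the limit in both and 10 were over the limit in a library.

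The wider interferon pathway was read from a list of 116 other genes, of which 94 were above 0 in both libraries. Of these 12 were higher (12.8%) and 10 were lower (10.6%), beside 18.5% and 13.2% of all genes, and the median log2 ratio was -0.22. All 18 interferon ligand genes on the list were listed at 0 in both libraries. The limit that 3 fragments set for them at D0 ran from 0.136 FPKM (Ifng) to 0.366 FPKM (Ifna4), so low levels cannot be told from absence. The kinases were within 2.0-fold, with Jak1, the kinase shared by both receptors, at 68.6 and 68.8 FPKM (ratio 1.00, interval 0.970 to 1.04). Stat5a was the higher gene of that group, with 4.58 and 13.1 FPKM (ratio 2.85, interval 2.53 to 3.24).

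Among the sensors and adaptors, 6 of 20 genes were higher and 3 were lower, beside 18.5% and 13.2% of all genes. With at least 1 FPKM in a library, 4 of 17 were higher (23.5%) and 3 lower (17.6%), beside 15.6% and 11.9% of genes. Tmem173, which encodes the adaptor STING, had 24.7 and 6.09 FPKM (ratio 0.247, interval 0.214 to 0.285), and Zbp1, a sensor of Z-form nucleic acid, had 12.6 and 2.69 FPKM (ratio 0.214, interval 0.139 to 0.319). The DNA sensor Mb21d1 had 1.27 and 0.631 FPKM (ratio 0.498), with no fragment number recovered. Mavs, the adaptor of Ddx58 and Ifih1, had 11.5 and 25.6 FPKM (ratio 2.23, interval 2.03 to 2.44). The ratios of these sensors were 0.400 and 1.21. The endosomal RNA receptors Tlr7 (0.248 and 2.70 FPKM, ratio 10.9, interval 6.81 to 18.6) and Tlr8 (0.109 and 1.29 FPKM, ratio 11.8, interval 5.39 to 26.8), both known from myeloid cells, were higher at D7. Of 9 negative regulators 1 was higher (11.1%) and 2 were lower (22.2%), beside 18.5% and 13.2% of all genes. The JAK inhibitors Socs1 (5.82 and 1.22 FPKM, ratio 0.209, interval 0.156 to 0.278) and Socs3 (26.3 and 7.17 FPKM, ratio 0.273, interval 0.240 to 0.308) were lower. The phosphatase Ptpn6, typical of blood cells, was higher (0.599 and 3.04 FPKM, ratio 5.07, interval 3.35 to 8.24).

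The largest group of the list, 61 other interferon-induced genes, had 57 genes above 0 in both libraries, of which 4 were higher, 5 were lower and 48 were within 2.0-fold, and 42 of the 57 had a ratio below 1. These shares of 7.02% higher and 8.77% lower stand beside 18.5% and 13.2% of all genes, of which 7401 of 14986 had a ratio below 1. The lower genes were the GTPases Tgtp1 (6.45 and 0.208 FPKM, ratio 0.0323, interval 0.0153 to 0.0598) and Tgtp2 (1.82 and 0.291 FPKM, ratio 0.160, interval 0.0845 to 0.281), the chemokines Ccl2 (206 and 13.3 FPKM, ratio 0.0649, interval 0.0549 to 0.0764) and Cxcl10 (2.78 and 0.596 FPKM, ratio 0.214, interval 0.0974 to 0.425), and Xaf1 (25.4 and 11.1 FPKM, ratio 0.437, interval 0.394 to 0.486). Slfn5 was the higher gene with the largest ratio, at 10.9 and 60.7 FPKM (ratio 5.59, interval 5.28 to 5.94). Nlrc5, a regulator of class I genes, was also higher (0.640 and 1.42 FPKM, ratio 2.21, interval 1.71 to 2.88), as was the immunoproteasome subunit Psmb9 (1.78 and 3.77 FPKM, ratio 2.12, interval 1.46 to 3.13). B2m, the light chain of class I molecules, had 949 and 1204 FPKM (ratio 1.27, interval 1.24 to 1.30).

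**Figure D5:**
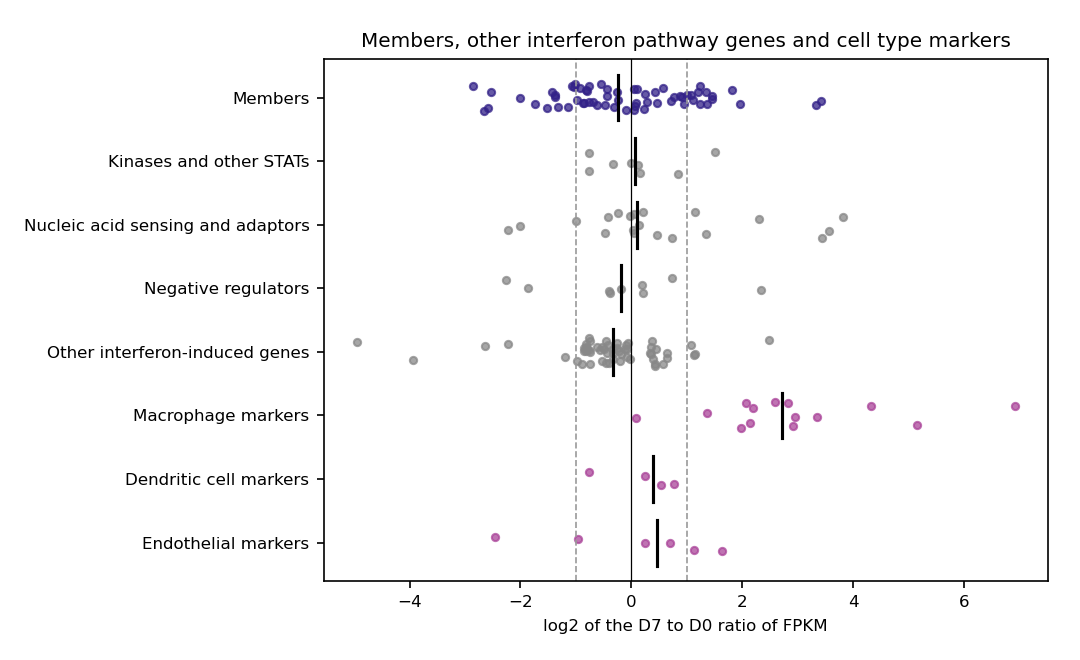
Log2 of the D7 to D0 ratio for the members, the groups of other pathway genes and marker lists of macrophages, dendritic cells and endothelium, each point 1 gene above 0 in both libraries and each bar a median, with dashed lines at ratios of 0.5 and 2.0. The median of the members is -0.23 and that of the other interferon-induced genes is -0.33, beside 2.71 for the macrophage markers.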

How the data were processed

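The RNA-Seq data comprised 1 library of preadipocytes (D0) and 1 of differentiated cells (D7). Reads were filtered by the authors and mapped to mm10 with SOAP2 per the methods, while the submitters' processing notes name Bowtie2. The values deposited by the authors are FPKM, 1 per gene in each library, not scaled further between libraries. Second-strand cDNA was degraded during library preparation, but whether strand was used in counting is not given in the sources used here, so values of overlapping genes are uncertain. No column of values was left unmatched.

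The ratio of D7 to D0 was taken from the FPKM values as deposited, without a pseudocount or rescaling, for genes above 0 in both libraries, and a ratio of 2.0 or more, or of 0.5 or less, made a call. Numbers of fragments were recovered from genes with 1 exon of at least 600 bp, of which 100% of the values up to 20 fragments came out whole within 0.1. For the others they rest on the length of the named transcript, or for 10 members of the longest, and are approximate. Values of up to 3 fragments were taken as at or under the limit; the counts of calls leave them in, which concerns Gbp8. Shared sequence was counted as 50-base stretches found in another gene of GENCODE M21. The procedure was tested on simulated data with counting error only, known transcript lengths and changed genes set well past 2.0-fold. That test does not bear on ratios near the threshold, on approximate lengths or on shared reads. Python 3.11.15, numpy 2.4.6, pandas 2.3.3 and scipy 1.17.1 were used.

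The members, lists and tests were chosen with earlier results of these data known. Members with at least 1 FPKM in a library are named, as are weaker ones past 2.0-fold with an interval that leaves out 1. Genes of the pathway list past 2.0-fold at that level may be named; Jak1 and B2m were chosen after their values were seen. Promoters were taken from RefSeq, and 21 members without a window were passed over. Some results are not reported here, though their genes stay in the counts. Alternatives were pseudocounts, scalings, filters, thresholds and, chosen after seeing the data, leaving out members with shared sequence or an overlapping gene on the same strand.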

Additional observations from a re-analysis of the deposited data

How the results depend on the processing

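No paired analysis was possible because each stage had 1 library and the labels give no replicate numbers, and whether the 2 libraries came from separate cultures was not given. The 14 members called higher became 6 with a pseudocount of 1, 8 with at least 1 FPKM in a library, 8 with values under 0.01 set to 0.01 and each library divided by its median, 2 at a threshold of 4.0-fold and 8 without members that share at least 10% of their 50-base stretches or overlap a gene on the same strand. The median log2 ratio of the members, -0.23, came to 0.00 with a pseudocount of 0.1 or 1. The 15 members called lower became 9 with a pseudocount of 1, 26 with the floor and library median and 5 at 4.0-fold. The members lower only with that floor and at least 1 FPKM were Irf7, Ifit3, Ifitm3, Oas1a, Oasl2 and Bst2. Of the other pathway genes, 7 in place of 12 were higher with a pseudocount of 1, 26 in place of 10 were lower with the floor and library median, and their median log2 ratio of -0.22 came to -0.01 with pseudocounts of 0.1 and 1. These pseudocounts and the floor also counted genes listed at 0. The other alternatives left the counts within 1.5 times. Of the 10 named members called higher, 4 stayed past the threshold under every scaling and pseudocount, as did 9 of the 15 called lower, and all 25 kept their direction. Depth limits ratios that rest on under 60 fragments in each library. Examples are those of Gbp4, Oas3, Oasl1, Irf8 and Ifitm1 (34 and 54 fragments).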
